A study of Schizosaccharomyces pombe with 130 samples.

Results

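Polyadenylated (pA) RNA was compared between fission yeast cells that lack Mit1, written mit1Δ and labelled mit1d, and wild-type cells, for every feature outside the classical silent repeats. Features were taken from the raw counts of the 2 mit1Δ and 4 wild-type pA RNA libraries. The centromeric dg and dh repeats, subtelomeric tlh1 with its neighbour SPAC212.10, the mating-type (mat) features, ribosomal and centromere core features and mit1 itself were set aside. This left 6940 of the 7021 features in the files, and 6578 of them had enough counts to be tested. The 6 libraries belong to a series of 130 samples that follows heterochromatic silencing in Schizosaccharomyces pombe through polymerase occupancy, nascent RNA, pA RNA, total RNA and histone methylation.

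Mit1 is the Snf2-family nucleosome remodeler of SHREC, a complex that it forms with Clr1, Clr2 and the histone deacetylase Clr3 and that is brought to heterochromatin by the HP1 protein Chp2 and by other factors. Heterochromatin is built on histone H3 methylated at lysine 9 (H3K9me) by Clr4, and at centromeres, at the mating-type locus and near chromosome ends it keeps transcripts low. SHREC is known to limit access of RNA polymerase II (Pol II) there, with the remodeler and the deacetylase acting together.

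All cells grew in rich YES medium, and both mit1Δ libraries came from 1 strain. That strain, 491, is h+ and carries the marker alleles leu1-32, ura4-D18 and ade6-216, a ura4+ gene placed in centromere 1 as imr1R::ura4+, and mit1Δ::kanMX6. Wild-type libraries 1, 3 and 4 came from strain 63, which is h+ and carries leu1-32, ade6-M210, the allele ura4-DS/E at the native ura4 locus and the centromeric reporter otr1R(SphI)::ura4+. Wild-type library 2 came from strain 65, which is h90, has the same markers and carries natMX6::3xFLAG-ago1. Both groups therefore hold a ura4+ reporter in pericentromeric chromatin, but at different positions, and differ in the ura4 allele at the native locus. No group pairs strain 491 with a wild type of the same markers, so at such loci the markers and the loss of Mit1 cannot be told apart.

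The libraries held 18686821 and 20475044 counts on features in mit1Δ and 17771761, 16326512, 15101602 and 13303953 counts in wild type. Normalised levels are given in CPM, the usual scaling of a count to the library total, with edgeR's TMM factors applied. Mit1 RNA itself was 1.08 and 0.842 CPM in mit1Δ against 70.9, 70.3, 61.7 and 61.8 CPM in wild type, as the labels state. Argonaute gene ago1 stood at 259 CPM in wild-type library 2 and at 70.1 to 85.3 CPM in the other 5 libraries, so the tagged strain was recognisable. The 4 wild-type libraries formed 2 pairs, with Spearman correlations of 0.978 between 1 and 2 and 0.987 between 3 and 4 but values from 0.917 upward across the pairs, all lower than within them. The mit1Δ libraries, correlated at 0.991, lay between these pairs on the first principal component. Calls that are lost without either pair are named with their values. The study names its libraries biological replicates, but the labels do not say that they were separate cultures, so p-values measure the spread between these samples.

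Polyadenylated RNA of mit1Δ cells differed from wild type at few members. Of the 6578 tested, 10 passed an adjusted p of 0.05 in edgeR's quasi-likelihood test across all 32 pA RNA libraries, 5 higher and 5 lower. Across all 6607 features tested, silent repeats and mit1 included, 0.288% passed. Most members stayed close to their wild-type level, with 95.6% showing a log2 fold change between -1 and 1 and a median of -0.015. The 5 members that rose were 4 nearby genes at the right end of chromosome I, SPAC750.06c, ftm4, SPAC750.01 and prl107, and a non-coding RNA inside the same chromosome, SPNCRNA.863. The 5 that fell were the marker gene ura4 with its neighbour new25, the antisense RNA of mit1, the retrotransposon Tf2-13 and the septin gene spn5. Leaving out 1 mit1Δ library left 5 calls (without replicate 1) or 6 calls (without replicate 2), all of them among these 10. Fitting the mit1Δ and wild-type libraries alone, without the spread of the other mutants, left 2 calls, SPNCRNA.863 and SPAC750.06c. Without wild-type replicates 3 and 4, 88 members passed, and 7 of the 10 were among them, without prl107 (adjusted p = 0.0517), new25 (0.0517) and mit1-antisense-1 (0.0570). Without wild-type replicates 1 and 2, 14 passed, and 7 of the 10 were among them, without ftm4 (0.0669), spn5 (0.151) and Tf2-13 (0.101).

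**Figure D1:**
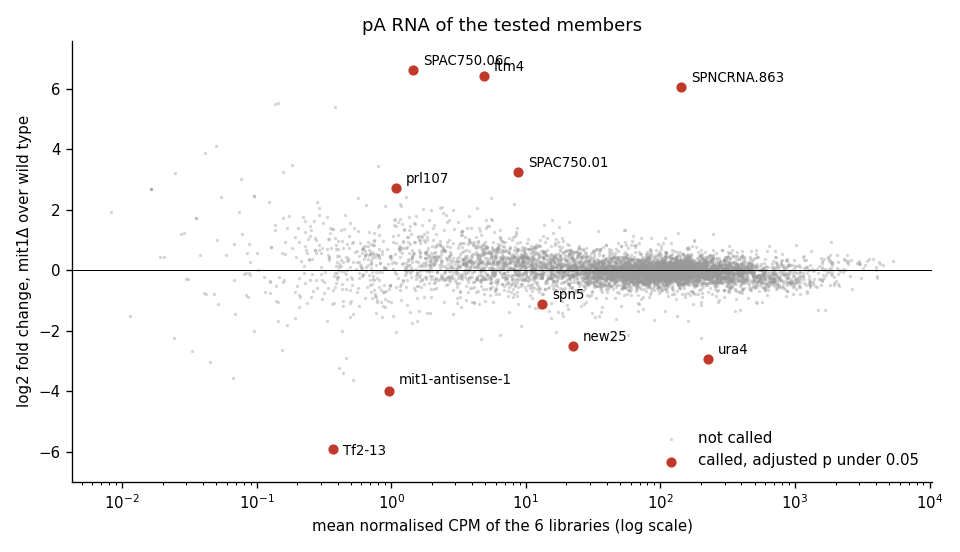
Log2 fold change of pA RNA (mit1Δ over wild type, vertical axis) against the mean normalised CPM of the 6 libraries (horizontal axis, log scale) for the 6578 tested members, each a point. The 10 called members are red and named, and 95.6% of members lie between -1 and 1. The fitted value of Tf2-13, which has no count in mit1Δ, depends on the prior count and is not a measured fold.

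At the right end of chromosome I, the aldo/keto reductase gene SPAC750.01 had 21.4 and 21.8 CPM in mit1Δ and 2.74, 0.323, 2.82 and 3.09 CPM in wild type. Both mit1Δ libraries stood above all 4 of wild type. Its log2 fold change was 3.27 (SE 0.50, edgeR adjusted p = 4.84e-04), a 9.64-fold higher level, and the call was lost only in the fit of the 2 genotypes alone (adjusted p = 0.592). Farther out lies ftm4, which encodes a predicted membrane protein of a subtelomeric family. It had 11.6 and 17.0 CPM in mit1Δ, and 0, 0, 0.137 and 0.541 CPM in wild type. The groups did not overlap, and the log2 fold change was 6.41 (SE 1.06, edgeR adjusted p = 0.0017), a call that held in 13 of 15 alternative settings and was lost with the 2 genotypes alone (0.144) and without wild-type replicates 1 and 2. Copies of this family are nearly identical and reads with several locations were counted only within heterochromatic regions, so the share of ftm4 among its copies is uncertain.

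Its outer neighbour SPAC750.06c, an uncharacterized protein gene, reached 4.92 and 3.72 CPM in mit1Δ against 0.0652, 0, 0.0687 and 0 CPM in wild type. Only 2 reads in all were counted in the 4 wild-type libraries, against 162 in mit1Δ. The ratio of the pooled levels was 129, with a 95% exact interval from counting error alone of 35.2 to 1080 (edgeR adjusted p = 8.74e-05). On the inner side, the non-coding RNA prl107, which runs antisense to the pyruvate decarboxylase gene pdc102, had 3.23 and 1.83 CPM in mit1Δ and 0.652, 0.452, 0.206 and 0.155 CPM in wild type. All mit1Δ values were higher, by 6.67-fold (log2 2.74, SE 0.50, edgeR adjusted p = 0.00609), a call that held in 12 of 15 settings. It was lost without mit1Δ replicate 1 (adjusted p = 0.404), with the 2 genotypes alone (0.824) and without wild-type replicates 3 and 4. The sense gene pdc102 had a log2 fold change of 2.26 that did not pass (adjusted p = 0.713).

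Beyond prl107, the next genes toward the centromere did not pass. SPAC186.08c, annotated as an L-lactate dehydrogenase, had a log2 fold change of -0.42, prl61 one of -0.64, SPAC186.07c one of -0.38 and SPAC186.06 one of -0.32. Both stretches were enriched for dimethylated H3K9 (H3K9me2) in the 1 wild-type H3K9me2 library and had far lower ratios in the 1 mit1Δ library. These libraries differ in background, since members with a wild-type ratio under 1 had a median ratio to input of 0.0775 in wild type and 0.57 in mit1Δ. The ratio of H3K9me2 to input DNA went from 35.8 to 0.858 at SPAC750.01 and from 41.7 to 0.984 at prl107, where the RNA rose. At SPAC186.08c it went from 32.5 to 1.02 and at prl61 from 29.1 to 0.818, where RNA did not pass. The wild-type input held 1 count at SPAC750.06c and 4 at ftm4, too few for a ratio there. The wild-type H3K9me2 and input libraries were both of strain 65, the h90 strain with tagged ago1. With 1 library for each strain these ratios have no replicate check.

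**Figure D2:**
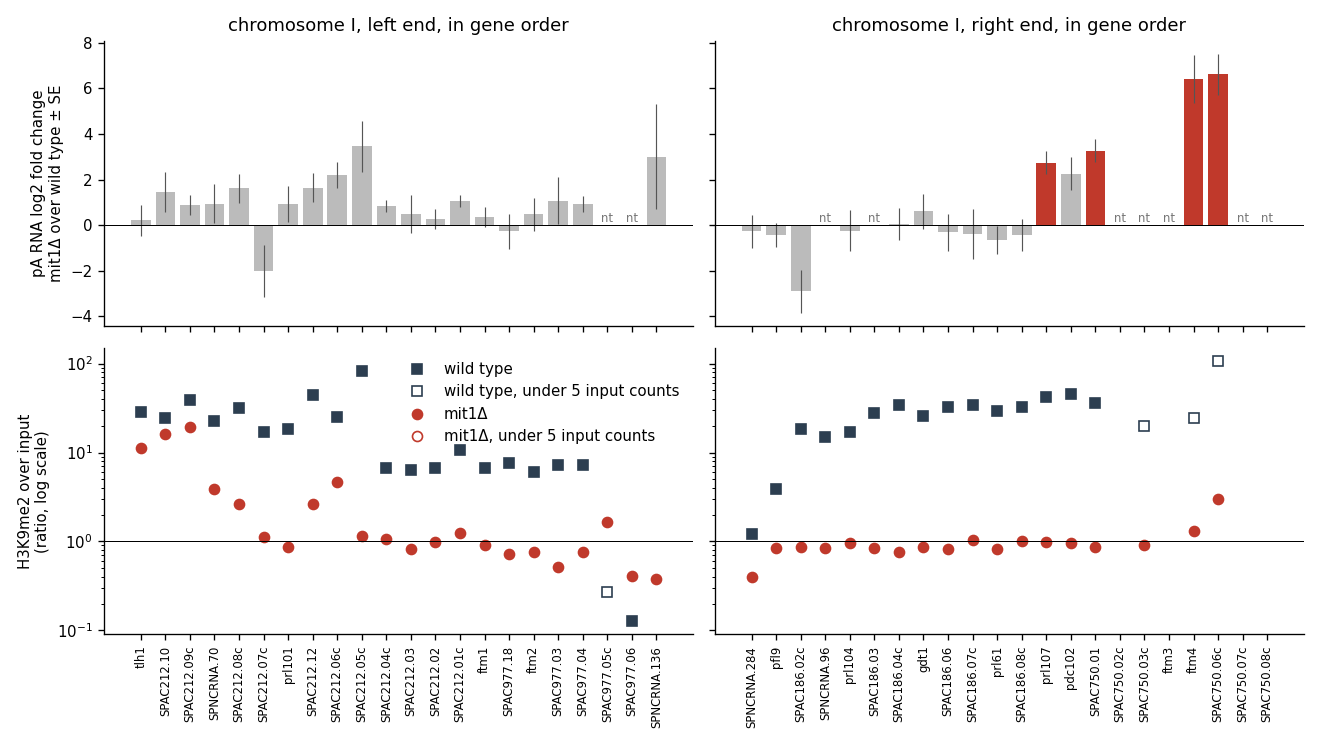
Upper panels, log2 fold change of pA RNA (mit1Δ over wild type, bars with SE, red where called, nt where not tested) for the 22 outermost features of either end of chromosome I, in gene order of the ASM294v3 annotation and not to scale. Lower panels, ratio of H3K9me2 to input DNA on a log axis in the 1 wild-type and 1 mit1Δ library, open where the input held under 5 counts. The 4 called genes lie at the right end, where features from SPAC750.01 inward to SPAC186.02c are enriched in wild type and near 1 in mit1Δ. At SPAC750.06c and ftm4 the wild-type input held too few counts for a ratio, and mit1Δ ratios were 3.02 and 1.31.

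At the left end of chromosome I no member passed, although most had a fold change above 0. Among 16 subtelomeric features that the study lists beside tlh1 and SPAC212.10, none passed in edgeR or in DESeq2. An unadjusted p under 0.05 was found for 7, 14 had a log2 fold change above 0, and the median was 0.90 against -0.015 over all members. In 8 of the 16, both mit1Δ libraries were above all of wild type, which held for 6.02% of all features tested. SPAC212.06c, which encodes a helicase-like protein, had 17.9 and 16.5 CPM in mit1Δ and 2.02, 5.42, 3.78 and 3.79 CPM in wild type. These groups did not overlap, with a log2 fold change of 2.19 (SE 0.58, edgeR adjusted p = 0.237). The uncharacterized gene SPAC212.01c had 111 and 109 CPM against 35.0, 61.4, 48.7 and 64.1 CPM, a 2.10-fold higher level that did not pass (adjusted p = 0.172). Its ratio of H3K9me2 to input went from 10.7 to 1.23, and that of SPAC212.06c from 25.0 to 4.71.

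Another copy of the membrane protein family, ftm1 at the left end, had 340 and 396 CPM in mit1Δ and 170, 195, 234 and 547 CPM in wild type. Its groups overlapped, and its H3K9me2 ratio went from 6.78 to 0.900. The study lists ftm1, but not ftm4, among the heterochromatic genes for which reads with several locations were kept. Input DNA counts in wild type and mit1Δ were 223 and 3080 at ftm1 against 4 and 73 at ftm4. Levels of these copies are therefore not comparable, and ftm1 may hold reads of other copies. Among the 30 outermost features at the left and right ends of chromosome II, 19 and 18 members were tested. None passed in edgeR or DESeq2, 2 and 4 had an unadjusted p under 0.05, and the median log2 fold changes were -0.13 and -0.36. Untested members included many without any input DNA count in wild type or mit1Δ, such as SPBC1348.01 and ftm5 at the left and SPBCPT2R1.03 and SPBPB2B2.19c at the right. Such members could not be measured, here or at the ends of chromosome I (ayr2 and ftm3). Median H3K9me2 ratios at the left and right ends of chromosome II were 0.116 and 0.205 in wild type. These medians cover every member with a ratio, tested or not, also those with under 5 input counts. The outermost part of the right end was enriched. There the pseudogene SPBCPT2R1.07c had a ratio of 28.4 in wild type and 19.4 in mit1Δ, SPBCPT2R1.06c, which had too few RNA counts to be tested, 15.0 and 2.33, and SPBCPT2R1.04c, with an RNA log2 fold change of 1.67 that did not pass (adjusted p = 0.915), 11.1 and 1.22.

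Members were then grouped by wild-type H3K9me2. A ratio to input of 5 or more was found for 40 of them, 32 on chromosome I, and their median ratio was 23.8 in wild type and 1.02 in mit1Δ. In mit1Δ 26 of the 40 were under 2, while others stayed high, with 27.7 in wild type and 24.8 in mit1Δ at SPNCRNA.359, 32.4 and 31.8 at SPNCRNA.366, and 38.9 and 19.6 at SPAC212.09c. Of the 36 tested in pA RNA, 2 rose, 1 fell, 27 had a log2 fold change above 0, and the median was 0.90. Of the 6476 tested members with a ratio under 1, 1 rose and 3 fell, and the median was -0.02. The 1 enriched member that fell was ura4, with a ratio of 10.5 in wild type and 15.6 in mit1Δ. Reads of the centromeric ura4+ reporter and of the native ura4 locus fall on the same feature. Neither this ratio nor the RNA level can therefore be assigned to the native locus.

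SPNCRNA.863 had the highest level in mit1Δ among the called members. This non-coding RNA, of no known function in the annotation, had 417 and 411 CPM in mit1Δ against 4.63, 12.6, 3.02 and 4.25 CPM in wild type. The groups were far apart, with a log2 fold change of 6.07 (SE 0.46, edgeR adjusted p = 1.11e-08), a 67.2-fold higher level. No other feature beside it passed. The overlapping SPNCRNA.862 on the other strand had a log2 fold change of -0.40, SPNCRNA.861 one of 0.58 and the glycoprotein gene SPAPB2C8.01 one of -0.27.

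The same RNA was high in some other mutants and low in others. It lay at 327 to 942 CPM in 4 chp2Δ libraries, 225 to 536 CPM in 3 swi6Δ libraries, which lack the second HP1 protein, and 504 to 598 CPM in 2 libraries of the strain written caf1*ccr4*, in which both deadenylase genes are altered. In clr3Δ, which lacks the deacetylase of the same complex, it was 6.64 to 7.12 CPM, and in clr4Δ, without H3K9 methylation, 8.11 to 11.2 CPM. It was also called higher, at a far lower level, in exo2Δ (15.9 to 17.9 CPM) and rrp6Δ (up to 19.9 CPM), which lack RNA exonucleases. The 4 strains with the high levels are the ones without otr1R::ura4+, the centromeric reporter that the wild-type strains and the other 8 mutants with pA RNA libraries carry. Marker background and mutation cannot be told apart for this RNA. Input DNA, 1 library for each strain, held 61.2 CPM of this locus in mit1Δ and 25.8 CPM in wild type, a ratio of 2.38 (95% exact interval 1.54 to 3.87, counting error only). Wild type, with 21 counts, had the lowest input of all strains. The other strains with much of the RNA had input levels of 62.4 CPM (chp2Δ), 50.8 CPM (caf1*ccr4*) and 50.5 CPM (swi6Δ). Mutants with little of it had 51.8 CPM in ago1Δ, 49.4 CPM in mot2Δ, 47.8 CPM in caf1Δ and ccr4Δ and 46.6 CPM in clr4Δ. Lower input levels were found in rrp6Δ (38.8 CPM), clr3Δ (33.7 CPM) and exo2Δ (29.7 CPM). A part of DNA level in the RNA difference was not tested.

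Among members that fell, ura4, which encodes the orotidine decarboxylase used as a selection marker, had 42.2 and 40.5 CPM in mit1Δ and 231, 194, 382 and 460 CPM in wild type. Its log2 fold change was -2.94 (SE 0.33, edgeR adjusted p = 4.99e-06), a 7.65-fold lower level. The call was lost when only the mit1Δ and wild-type libraries were fitted (adjusted p = 0.082). The neighbouring new25, a small annotated protein gene, had 4.02 and 6.89 CPM against 15.4, 15.3, 36.8 and 55.7 CPM, with a log2 fold change of -2.49 (SE 0.50, edgeR adjusted p = 0.021). Neither gene's groups overlapped. The call of new25 held in 8 of 15 settings and was lost when either mit1Δ library (adjusted p = 0.897 without replicate 1 and 0.161 without replicate 2) or wild-type replicate 3 (0.0527) or 4 (0.0541) was left out. The genes on either side of this pair, tam14 and pmp20, had log2 fold changes of -0.62 and -0.35 and did not pass. Of the other marker genes, ade6 had a log2 fold change of -0.36 and leu1 one of -0.02, without passing.

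Both ura4 and new25 were also called lower in 1 other mutant, the caf1*ccr4* strain, where ura4 was 0 to 0.337 CPM. Among the strains with pA RNA libraries, that strain and strain 491 are the 2 that carry ura4-D18, and the others carry ura4-DS/E. Input DNA over ura4 was 64.5 CPM in mit1Δ and 158 CPM in wild type, a ratio of 0.408 (95% exact interval 0.337 to 0.497, counting error only). At new25 the ratio was 0.900 (0.498 to 1.79). The lower ura4 and new25 RNA therefore cannot be told apart from the marker alleles.

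Tf2-13, 1 copy of the Tf2 retrotransposon, had no count in either mit1Δ library and 0.326, 0.903, 0.137 and 0.850 CPM in wild type, 32 counts in all. Against a floor of 3 counts over the mit1Δ group its level was at least 6.68-fold lower (edgeR adjusted p = 0.0471, DESeq2 adjusted p = 0.0679). Input DNA also had no read on it in mit1Δ, from 9963515 counts, and 1 in wild type, from 815425. It had 20 reads in exo2Δ, 18 in chp2Δ, 17 in mot2Δ, 14 in ccr4Δ and 11 in rrp6Δ. The other mutants had 1 to 4, with 1 in the caf1*ccr4* strain, which had no pA RNA count either. Pol II ChIP was 0 CPM in both mit1Δ libraries and 4.25 and 3.78 CPM in wild type. Whether the mit1Δ strain holds this copy was not tested. Strain background and loss of Mit1 therefore cannot be told apart for Tf2-13. The call held in 5 of 14 settings and was lost without either mit1Δ library (adjusted p = 0.734 without replicate 1 and 0.912 without replicate 2) and without wild-type replicate 2 (0.0919) or 4 (0.115). Tf2 copies are near-identical, so the assignment of reads to 1 copy is uncertain. The other 3 Tf2 copies tested had log2 fold changes of -0.72, -0.48 and -0.04 and did not pass.

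The antisense RNA mit1-antisense-1 overlaps the deleted gene. It had 0.0566 and 0.0991 CPM in mit1Δ, from 3 counts, and 0.456, 0.903, 1.72 and 2.55 CPM in wild type, from 79 counts, a pooled ratio of 16.5 in favour of wild type (95% exact interval 5.44 to 81.7, counting error only, edgeR adjusted p = 0.0471). The call held in 6 of 15 settings and was lost without either mit1Δ library (adjusted p = 0.897 without replicate 1 and 0.762 without replicate 2) and without wild-type replicate 3 (0.112) or 4 (0.127). Input DNA over it held 7 counts in mit1Δ and 103 in wild type, a ratio of 0.00556 after scaling to depth. No other neighbour of mit1 passed. The overlapping gene nbr1 had a log2 fold change of -0.54, the splicing factor gene usp103 one of -0.36, the TRAMP subunit gene air1 one of -0.09 and the pyrophosphatase gene ysa1 one of 0.24, all with adjusted p = 0.915 or higher.

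The remaining called member was spn5, which encodes a septin that functions in meiosis and spore formation. It had 7.47 and 7.48 CPM in mit1Δ and 17.0, 17.2, 17.5 and 12.8 CPM in wild type. The groups were separate, with a log2 fold change of -1.11 (SE 0.24, edgeR adjusted p = 0.0429), a 2.15-fold lower level. Its call held in 6 of 15 settings. It was lost when either mit1Δ library was left out (adjusted p = 0.734 without replicate 1 and 0.762 without replicate 2) and when wild-type replicate 1, 2 or 3 was (0.0804, 0.0740 and 0.123). In the same fit spn5 was called lower in chp2Δ, at 7.58 to 9.91 CPM, and in swi6Δ, at 7.04 to 9.66 CPM. In clr3Δ it was 9.26 to 10.3 CPM and did not pass (log2 -0.72, adjusted p = 0.194). It was called higher in caf1Δ, ccr4Δ, mot2Δ and rrp6Δ, which lack RNA degradation factors, with 45.5 to 53.5 CPM in caf1Δ.

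**Figure D3:**
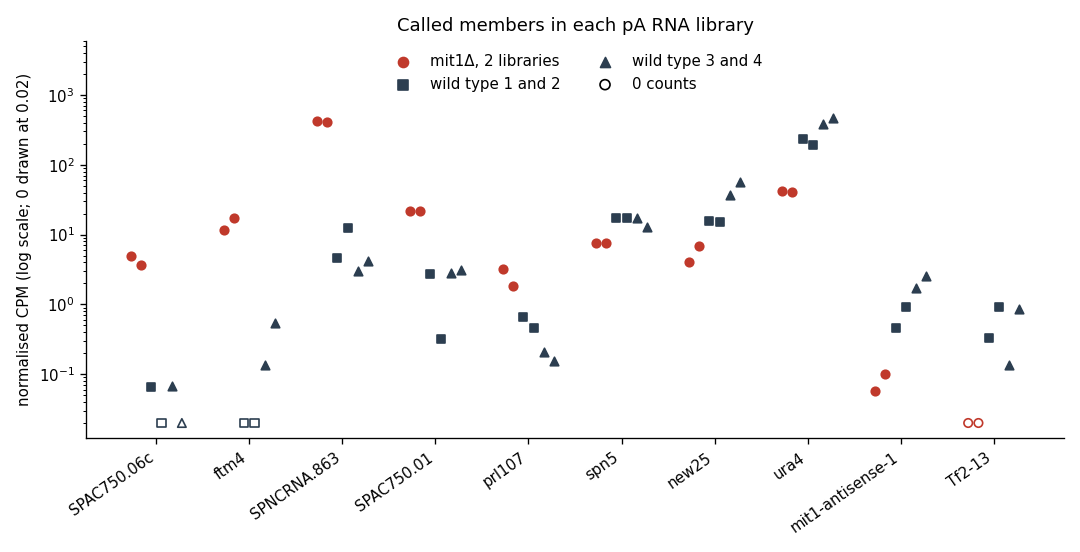
Normalised CPM on a log axis of the 10 called members in each of the 6 pA RNA libraries, with mit1Δ as red circles, wild-type libraries 1 and 2 as squares and 3 and 4 as triangles, and open symbols at 0.02 for 0 counts. In each member both mit1Δ libraries lie outside the wild-type range, and wild-type libraries 1 and 2 are below 3 and 4 at new25, ura4 and mit1-antisense-1.

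Just outside the threshold lay 5 members. The centromeric non-coding RNA SPNCRNA.234 had 0.566 and 0.297 CPM in mit1Δ and no count in wild type (adjusted p = 0.0506), and SPNCRNA.231 had 0.226 and 0.595 CPM and also no wild-type count (adjusted p = 0.163). SPBC1289.14, an adducin-family gene, had 0.396 and 0.694 CPM in mit1Δ and 1.30, 1.48, 1.79 and 2.86 CPM in wild type (log2 -1.74, adjusted p = 0.0754). The pseudogene SPBCPT2R1.07c had 1.08 and 1.14 CPM against 1 wild-type count (adjusted p = 0.177), and SPAC212.01c is given above.

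The libraries of the 2 partner mutants were compared with mit1Δ directly. The clr3Δ strain, 302, is h+ and carries ura4-DS/E and otr1R::ura4+, as strain 63 does. The chp2Δ strain, 324, is h90 and carries ura4-DS/E and the reporter mat3::ura4+. Both differ from the mit1Δ strain in the ura4 and ade6 alleles and in reporter position, and chp2Δ also in mating type. Against clr3Δ, 28 members passed, 20 higher and 8 lower in mit1Δ, when 0.469% of all features tested passed in this comparison. SPBC1289.14 showed the largest difference, with 57.4 and 44.7 CPM in clr3Δ and 0.396 and 0.694 CPM in mit1Δ (log2 -6.52, SE 0.50, edgeR adjusted p = 1.38e-08). SPBPB2B2.06c, a predicted phosphatase gene, had 115 and 100 CPM in clr3Δ and 2.66 and 2.03 CPM in mit1Δ (adjusted p = 5.43e-04). No library of one mutant overlapped the other at either gene, and mit1Δ lay nearer the wild-type means of 1.86 and 4.79 CPM.

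The right end of chromosome I divided in this comparison. SPAC186.08c had 10.9 and 6.90 CPM in clr3Δ against 0.340 and 0.297 CPM in mit1Δ (log2 -4.77, SE 0.82, edgeR adjusted p = 0.00394), and prl61 had 5.73 and 5.33 CPM against 0.622 and 0.446 CPM (log2 -3.35, adjusted p = 0.0299). Both had low H3K9me2 ratios in either mutant, at 1.02 in mit1Δ and 0.410 in clr3Δ for SPAC186.08c. Farther out, the genes that rose over wild type did not differ from clr3Δ by the test. Their log2 differences were -0.06 (SE 0.79) at SPAC750.06c, -0.75 (SE 1.01) at ftm4, -0.47 (SE 0.57) at SPAC750.01 and -0.89 (SE 0.56) at prl107, errors that leave room for differences of 2-fold or more.

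Members higher in mit1Δ than in clr3Δ included pfl3, which encodes a cell surface adhesin. It had 282 and 249 CPM in mit1Δ, 45.0 and 45.2 CPM in clr3Δ and 108, 77.3, 150 and 192 CPM in wild type, and the direct difference passed (log2 2.56, SE 0.42, adjusted p = 0.00219) while that from wild type did not (log2 1.01, adjusted p = 0.766). The origin-binding protein gene abp2 had 178 and 162 CPM in mit1Δ against 39.9 and 40.5 CPM in clr3Δ, with a wild-type mean of 146 CPM. The deleted clr3 itself was among the 28, as were SPNCRNA.863, ura4, new25 and mit1-antisense-1. Markers and mutation cannot be told apart at SPNCRNA.863, ura4 and new25 here either, and mit1-antisense-1 overlaps the deleted mit1. Without mit1Δ replicate 1 or 2, 10 and 9 members passed against clr3Δ.

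Against chp2Δ, only 4 members passed, when 0.0757% of all features did. They were chp2, deleted there, with 55.3 and 69.8 CPM in mit1Δ against 2.08 to 8.12 CPM in 4 chp2Δ libraries, and ura4, new25 and mit1-antisense-1, all lower in mit1Δ. At ura4 and new25 the marker alleles and the mutations cannot be told apart, and mit1-antisense-1 overlaps the deleted mit1. Without either mit1Δ library 2 members passed. SPNCRNA.863 was not told apart (log2 -0.60, SE 0.44, adjusted p = 0.992), nor was SPAC750.01 (log2 0.15, SE 0.49).

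Levels of the called members in all 12 mutants, which share the 4 wild-type libraries, set these values in context. SPAC750.01 was above all wild-type libraries in 12 of 12 mutants and was called higher in each, at 11.7 to 107 CPM over the mutant libraries. SPAC750.06c, prl107 and ftm4 were called higher in 10 of 12. H3K9me2 ratios at SPAC750.01, from 1 library for each strain, were 0.520, 0.479, 1.10 and 0.111 in clr3Δ, chp2Δ, swi6Δ and caf1Δ. They were 37.3 in ago1Δ, 17.6 in exo2Δ and 13.3 in rrp6Δ. Background differs between these libraries, so the ratios are not on 1 scale. At spn5, with 0.114 in wild type, they were 0.509, 0.391, 0.0964 and 0.0658 in clr3Δ, chp2Δ, swi6Δ and caf1Δ. There they were 1.21 in ago1Δ, 0.647 in exo2Δ and 0.0795 in rrp6Δ. A higher SPAC750.01 RNA was measured in ago1Δ, exo2Δ and rrp6Δ, where its ratio stood far above that at spn5. It was also measured in clr3Δ and chp2Δ, where the ratios were close.

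**Figure D4:**
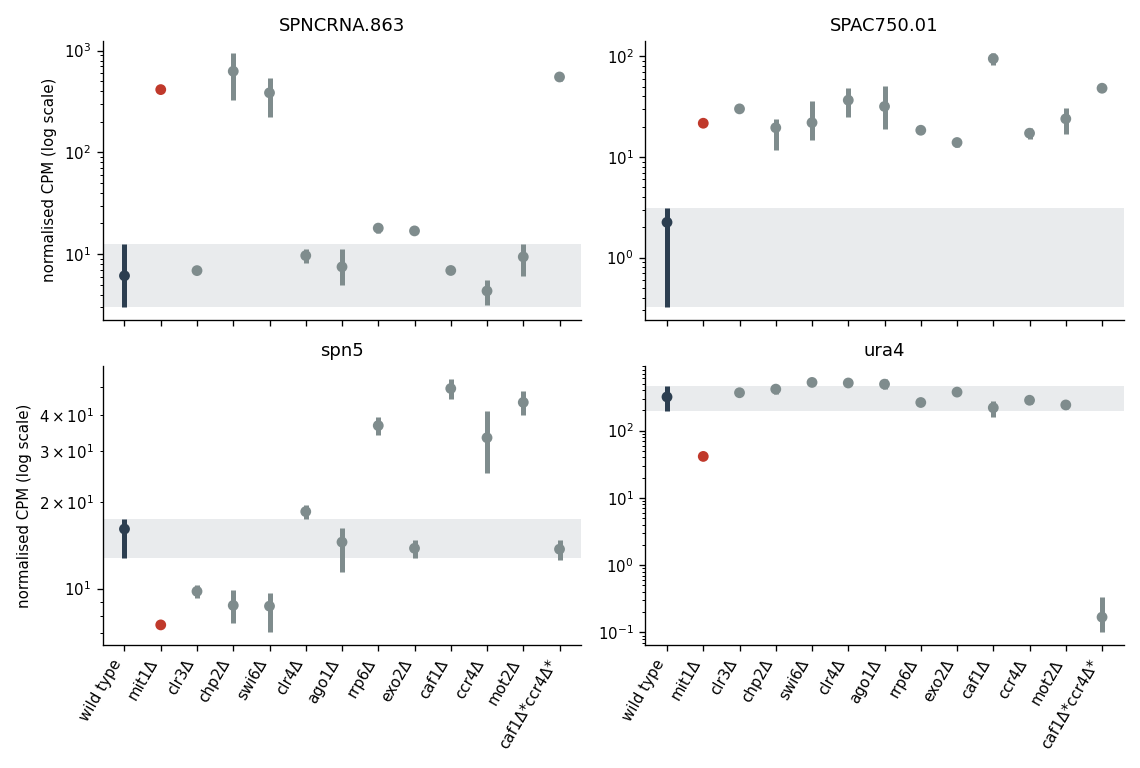
Normalised pA RNA CPM (log axis) of SPNCRNA.863, SPAC750.01, spn5 and ura4 in wild type and 12 mutants, with the mean as a point, the lowest to highest library as a line and the wild-type range as a shaded band. Values below 0.1 are drawn at 0.1. SPNCRNA.863 is high in 4 mutants, SPAC750.01 is above the band in all 12, and ura4 is below it in mit1Δ and in the caf1*ccr4* strain.

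Nascent RNA bound to elongating Pol II (RIP) was measured in 3 mit1Δ and 2 wild-type libraries, and 4 members passed, all higher, when 0.168% of features did. Both wild-type RIP libraries were of strain 63. For ftm4 the values were 12.1, 10.4 and 8.20 CPM in mit1Δ and 0 in both wild-type libraries (edgeR adjusted p = 8.01e-04). SPAC212.09c, a subtelomeric pseudogene, had 223, 199 and 204 CPM against 47.8 and 94.2 CPM, SPNCRNA.388 had 130, 126 and 128 CPM against 26.1 and 29.5 CPM, and SPBCPT2R1.07c had 6.29, 6.12 and 4.10 CPM against 0 and 0. Mutant and wild-type libraries were separate at each. Without wild-type replicate 1 none passed in edgeR, 181 had an unadjusted p under 0.05, and the full comparison in DESeq2 called 7.

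SPNCRNA.863 had 87.6, 65.9 and 356 CPM in mit1Δ RIP and 9.76 and 4.09 CPM in wild type, without overlap, but did not pass (log2 4.40, SE 1.12, adjusted p = 0.220). At prl107 the nascent level was 3.02, 1.88 and 3.64 CPM against 3.20 and 2.46 CPM, and at SPAC750.01 it was 21.1, 15.5 and 43.3 CPM against 11.1 and 18.0 CPM, so that both overlapped. Marker gene ura4 had 13.3, 7.53 and 7.29 CPM against 36.7 and 20.5 CPM (adjusted p = 0.942).

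Wild-type Pol II ChIP libraries were 1 of strain 63 and 1 of strain 65. In Pol II ChIP, with 2 libraries a group after the replicate filter, 2 members passed, both lower, when 0.0444% of features did. They were mit1-antisense-1 (log2 -5.00), over the deleted DNA, and SPNCRNA.792, with 45.9 and 34.6 CPM in mit1Δ against 94.7 and 110 CPM in wild type. No member was called higher in edgeR, the only tool run for ChIP, and 220 had an unadjusted p under 0.05 in that direction. Occupancy at SPNCRNA.863 was 122 and 112 CPM against 34.0 and 62.5 CPM (log2 1.27, adjusted p = 0.407), and ChIP has no strand, so overlapping SPNCRNA.862 is counted from the same DNA. At ftm4 it was 14.8 and 9.51 CPM against 0.386 and 1.81 CPM (log2 3.41, adjusted p = 0.252).

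Genes of the silencing pathways themselves did not pass the test. None of the 5 SHREC partners passed in edgeR or DESeq2 or had an unadjusted p under 0.05, with log2 fold changes of -0.27 for clr1, 0.01 for clr2, -0.43 for clr3, 0.36 for chp2 and 0.06 for ccq1, which links the complex to telomeres. The deacetylase gene clr3 had 66.9 and 56.7 CPM in mit1Δ and 104, 98.8, 67.8 and 61.8 CPM in wild type. Likewise none of 9 genes for H3K9 methylation and HP1 proteins (median 0.12), 9 of RNA interference (median -0.07), 10 for other remodelers (median -0.14), 17 of RNA decay (median -0.15) and 11 histone genes (median -0.20) passed in either tool, and none had an unadjusted p under 0.05.

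Heat shock genes had the lowest median of the 27 gene lists, at -0.78 over 14 genes, with 13 below 0. None passed in edgeR or DESeq2, 7 had an unadjusted p under 0.05, and in 7 both mit1Δ libraries were below all of wild type, which held for 5.33% of all features tested. The disaggregase gene hsp104 had 37.9 and 36.4 CPM in mit1Δ and 98.7, 252, 53.8 and 54.0 CPM in wild type, and the Hsp70 gene ssa1 had 14.1 and 10.9 CPM against 55.8, 151, 17.5 and 19.2 CPM. Wild-type libraries 1 and 2 stood above 3 and 4 at both genes. The summed level of the list was 9200 and 7611 CPM in mit1Δ and 15160, 20630, 7842 and 6598 CPM in wild type, so that mit1Δ lay within the wild-type range, well below libraries 1 and 2 and close to 3 and 4. Relative to the median of all members, the list median of -0.76 became -0.44 without wild-type replicate 2, -0.18 without wild-type replicates 1 and 2, and -1.31 without 3 and 4. Of 19 core stress genes none passed in either tool and 2 had an unadjusted p under 0.05 (median -0.41), with tps1, for trehalose synthesis, at 120 and 113 CPM against 167, 385, 201 and 208 CPM.

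Genes of sexual differentiation had a median of -0.54 over 12 genes. None passed in edgeR or DESeq2, and 5 had an unadjusted p under 0.05. The meiosis regulator gene mei2 had 9.39 and 8.18 CPM in mit1Δ and 16.6, 14.0, 40.6 and 22.3 CPM in wild type, without overlap (log2 -1.41, SE 0.45, adjusted p = 0.694). Mating-type markers, the sign of another cell type in these cultures, did not stand apart. The 3 P-specific genes had a median of -0.07 and the 7 M-specific genes one of -0.14, with none past the test in either tool or under an unadjusted p of 0.05, and no member of either list had groups that did not overlap. The wild-type range mixes mating types, since library 2 is of the h90 strain 65. That library had the highest wild-type value at mam1 (81.9 CPM), mam3 (40.4 CPM) and mfm2 (17.4 CPM), but not at mfm1, mfm3, mam2 or sxa2.

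**Figure D5:**
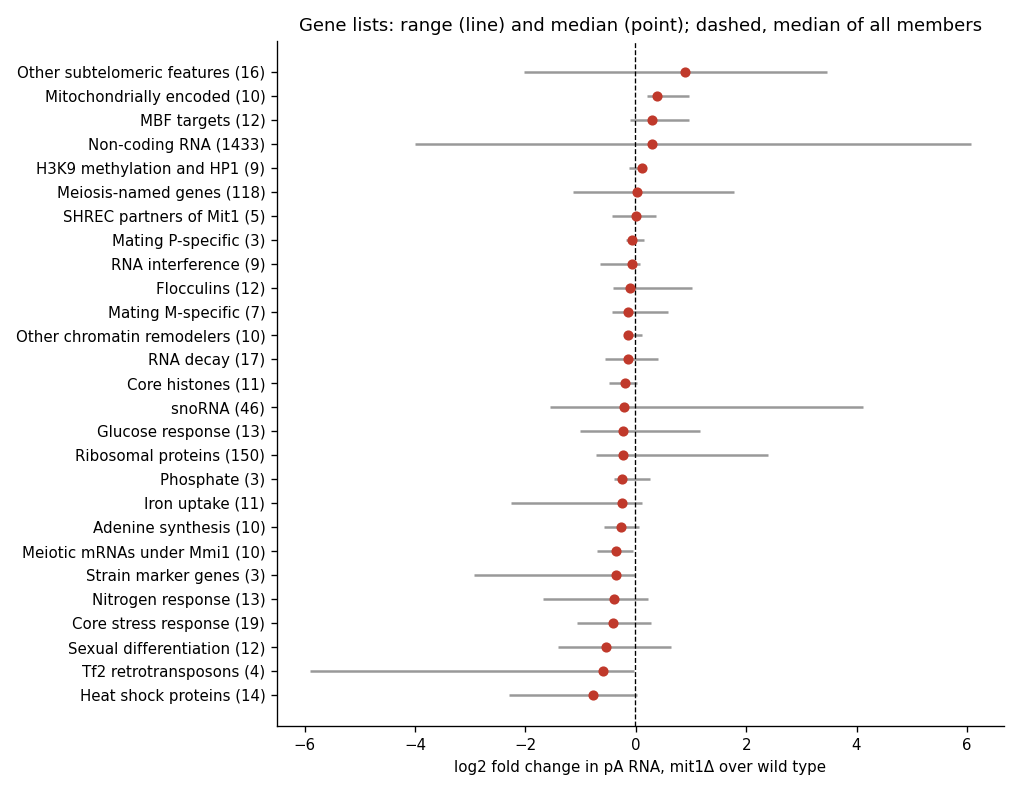
Log2 fold change of pA RNA (mit1Δ over wild type) for 27 gene lists, with the range over tested members as a line, the median as a red point and the number tested in parentheses. The dashed line is the median of all members, -0.015. The list of other subtelomeric features has the highest median, 0.90, and heat shock proteins the lowest, -0.78.

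Of nutrient and growth lists, nitrogen response genes had a median of -0.40 and iron uptake genes -0.25, and for isp7, an oxygenase gene, wild-type libraries 3 and 4 (364 and 321 CPM) stood above 1 and 2 (50.5 and 90.4 CPM) with mit1Δ at 70.3 and 58.8 CPM. Genes of the G1/S factor MBF had a median of 0.30, and cdc18, which loads the replicative helicase, had 93.7 and 92.2 CPM against 24.0, 73.2, 69.8 and 41.5 CPM (adjusted p = 0.915). The 150 ribosomal protein genes had a median of -0.24. In edgeR and DESeq2 no member of these 4 lists passed, and 3, 0, 1 and 1 had an unadjusted p under 0.05. The 10 meiotic RNAs removed through Mmi1 were all below 0 (median -0.36) and the 10 mitochondrially encoded genes all above 0 (median 0.38), with none past the test in either tool or under an unadjusted p of 0.05. Medians were 0.02 over 118 genes named for meiosis, -0.27 over 10 for adenine synthesis, -0.24 over 13 of glucose response, -0.11 over 12 flocculins and -0.25 over 3 of phosphate uptake. None of these passed in either tool, and 2, 1, 1, 1 and 0 had an unadjusted p under 0.05. Of 46 snoRNAs (median -0.22) none passed in edgeR or had an unadjusted p under 0.05, and DESeq2 called 1, snR5.

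Non-coding RNAs as a class had a median log2 fold change of 0.29 over 1433 tested, and 1047 were above 0, while protein-coding genes had a median of -0.053. Of these, 3 were called, SPNCRNA.863, prl107 and mit1-antisense-1, a share of 0.209% beside 0.288% over all features. In 119 (8.30%) both mit1Δ libraries were above all of wild type, beside 6.02% of all features, and in 24 (1.67%) below, beside 5.33%. The median depended on single libraries. It was -0.035 without mit1Δ replicate 2, 0.478 without mit1Δ replicate 1, 0.172 without wild-type replicate 1 and 0.454 without wild-type replicate 4. Without wild-type replicates 1 and 2 it was 0.121, and without 3 and 4 it was 0.547.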

How the data were processed

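Each deposited file holds the authors' raw counts per feature for 1 library. The authors aligned reads to the PomBase genome with STAR 2.7.3a, removed ribosomal reads and counted with an extended HTSeq, by strand for RNA, with several-location reads kept only within heterochromatic regions, so near-identical copies are uncertain. Deposited counts carry no normalisation. Gene names, order and products came from RefSeq's ASM294v3 annotation. The study names a PomBase release but no assembly, and the files hold no coordinates to compare with this annotation, so no coordinates or sequences are printed.

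A feature entered the fit when 2 or more libraries reached 10 counts. Tests used edgeR 4.0.16 (R 4.3.3) after TMM scaling, with genotype as the only term, in 1 fit for each assay (32 pA RNA, 37 RIP and 29 ChIP libraries, the last without 2 whose Spearman correlation with their replicates was below 0.8). P-values are two-sided and adjusted by Benjamini-Hochberg over all features tested. The SE is the log2 fold change divided by the square root of F. The biological coefficient of variation was 29.8%. Exact intervals are Clopper-Pearson and, like floors, cover counting error only. H3K9me2 is a ratio of CPM over input, given for single features with at least 5 input counts. The medians at the chromosome II ends used every ratio.

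In simulated counts on 6607 features for mit1Δ against wild type, 97.0% of 67 features changed by 4 on the log2 scale, 92.5% of 67 changed by 2 and 34.8% of 66 changed by 1 were recovered, with 7 false among 157 calls. Smaller differences than these can be missed. Features with very low expected wild-type counts were not changed in the simulation, and its noise was independent between libraries. It lacked the pairing seen among the wild-type libraries, so these rates need not hold there or for features near the floor.

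Named genes are called members whose groups do not overlap, up to 4 of each list by smallest p, the SHREC and marker lists and the neighbours of mit1. SPNCRNA.388, SPNCRNA.792, SPBPB2B2.06c, abp2, ftm1 and other genes of the second comparisons were named after their values were seen. Members and lists were chosen with earlier results of these data known. Alternatives used DESeq2 1.42.0, other scalings and filters, a replicate block and left-out libraries. Total RNA was not used here.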

Additional observations from a re-analysis of the deposited data

Results flagged for a closer look

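Among the 16 named members, 5 had 1 wild-type pA RNA library far from the other 3 by Dixon's gap test. In normally distributed values chance alone does this in about 1 in 20 groups. At SPNCRNA.863 the highest wild-type library was replicate 2 at 12.6 CPM, still well below both mit1Δ libraries. At SPAC750.01 the lowest was replicate 2 at 0.323 CPM, and at spn5 it was replicate 4 at 12.8 CPM. The pseudogene SPBCPT2R1.07c had its only wild-type count, 1 read, in replicate 3, at 0.0687 CPM. At pdc102 the lowest wild-type library stood at 0.0773 CPM, from 1 count where each other library had 2. With so few counts the 1 in 20 rate does not apply to SPBCPT2R1.07c and pdc102, and their flags carry no weight.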

How the results depend on the processing

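The count of 10 members called in pA RNA was 14 with DESeq2, 7 with upper-quartile scaling, 2 when only the mit1Δ and wild-type libraries were fitted (SPNCRNA.863 and SPAC750.06c) and 6 with a replicate block. Shared replicate numbers did not mark a shared day in the labels, and only 2 numbers were shared, with correlations of deviations of 0.299 and 0.221. Single libraries left out gave 5 to 12 calls. Settings chosen after seeing the data gave 14 calls without wild-type replicates 1 and 2 and 88 without 3 and 4. RIP calls went from 4 to 7 with DESeq2, 5 with a replicate block (added after seeing the data) and 0 to 5 with 1 library left out. ChIP calls were 1 with all libraries kept. Direct calls against clr3Δ went from 28 to 9 and 10, and against chp2Δ from 4 to 2 and 2, with 1 mit1Δ library left out. No named member changed direction. SPNCRNA.863 and SPAC750.06c passed in all 15 alternatives and ura4 in all but the fit of 2 genotypes alone. Of the lower calls, new25 passed in 8 of 15, mit1-antisense-1 in 6 of 15, spn5 in 6 of 15 and Tf2-13 in 5 of 14. Causes were not tested. A wild-type input of 815425 counts limits the DNA and H3K9me2 ratios.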
